A study of Homo sapiens with 12 samples.

Results

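The genes described here are 9 secretory and mucosal defence genes of the airway epithelium, taken by symbol from a table of transcript levels in A549 cells, a human lung adenocarcinoma line. They are the mucins MUC5B, MUC5AC and MUC1, the antiproteases SLPI and SPINK6, the defensin DEFB1, the membrane proteins SUSD2 and AQP3, and the vesicle protein VAMP8. Of the 9 symbols, 8 have a row among the 25365 rows of the table, and all 8 passed the filter of a mean level of 1 FPKM or more that left 11881 genes for testing; FPKM is a read count scaled by transcript length and by library size. MUC5AC was not analysed here. The genes were chosen by their measured difference between genotypes, as a set in which several members were lower in cells labelled PARP3-/-, so every difference between genotypes given for them is a description of the values that chose them and carries no test. The responses to pyridostatin were not used in the choice and were tested, in the same 12 libraries.

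The study sequenced polyadenylated RNA from WT and PARP3-/- A549 cells that had received vehicle (DMSO) or 1 µM pyridostatin for 24 h, with 3 libraries in each of the 4 groups. PARP3 is a poly(ADP-ribose) polymerase that takes part in the repair of DNA breaks, and pyridostatin is a small molecule that binds and stabilises G quadruplexes, four-stranded structures of guanine-rich DNA. The PARP3-/- cells were made with Cas9 cutting in the first exon and were cloned by serial dilution, so differences between genotypes cannot be told apart from differences between clones. The study's methods call the 3 libraries of a group biological replicates, while the labels do not say from which cultures they came, and the p-values measure the spread between these libraries.

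The mucosa of the airway is covered by a gel of secreted mucins, of which MUC5B and MUC5AC are the main polymers, while MUC1 is anchored in the apical membrane. Epithelial cells add small defence proteins to this layer. SLPI inhibits neutrophil elastase and has antimicrobial activity, SPINK6 is a Kazal-type inhibitor of kallikrein proteases, and DEFB1 encodes a beta-defensin that is made by many epithelia without induction. AQP3 is a channel for water and glycerol, VAMP8 is a SNARE protein of endosomes and secretory granules, and SUSD2 encodes a membrane protein with a sushi domain.

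PARP3 itself was listed at 3.83, 3.40 and 3.96 FPKM in the WT vehicle libraries and at 4.92, 4.07 and 4.25 FPKM in those labelled PARP3-/- vehicle. With pyridostatin the values were 3.74, 3.57 and 4.05 FPKM in WT and 4.73, 4.71 and 4.30 FPKM in the libraries labelled PARP3-/-. The transcript was thus higher, without overlap, in those labelled PARP3-/- than in WT in both treatments. A value over the whole gene does not read the first exon alone and is no check of those labels. The depth, estimated from the smallest steps in the FPKM values, was 24100000 to 34100000 reads per library. The summed FPKM was 492839 to 525124 in 11 libraries and 563473 in WT vehicle replicate 2, which stood apart. Of 6 epithelial markers, 5 had a mean of at least 1 FPKM, with KRT8 between 2766 and 3375 FPKM and EPCAM between 0.879 and 2.36 FPKM. The markers of the secretory club cell were nearly absent, with SCGB3A1 and SCGB3A2 listed at 0 in every library and SCGB1A1 at no more than 0.149 FPKM, and of the alveolar type II markers SFTPB was listed at 0 in every library while ABCA3 lay between 7.99 and 11.1 FPKM.

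The reference promoter table holds 4 of the members, and their sequences are shown because 3 of these genes (AQP3, VAMP8 and SPINK6) were lower together in the cells labelled PARP3-/- while MUC1 was not. Each line gives the 250 bases before the annotated start, 5′ to 3′ on the strand of the gene, from RefSeq on GRCh38.p14. They are chr1:155192916-155193165 on the minus strand for MUC1, chr9:33447594-33447843 on the minus strand for AQP3, chr2:85577336-85577585 on the plus strand for VAMP8 and chr5:148202528-148202777 on the plus strand for SPINK6. Capitals mark matches, on either strand, to TATAAA (the TATA box), to GGGCGG (the core of the GC box) or to a G quadruplex motif of 4 runs of at least 3 G with loops of 1 to 7 bases.
MUC1: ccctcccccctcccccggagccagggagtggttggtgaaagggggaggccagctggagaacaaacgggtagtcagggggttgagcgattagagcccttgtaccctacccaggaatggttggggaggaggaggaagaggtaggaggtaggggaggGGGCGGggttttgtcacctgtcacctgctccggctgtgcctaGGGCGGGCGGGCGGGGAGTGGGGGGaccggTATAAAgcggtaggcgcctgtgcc
AQP3: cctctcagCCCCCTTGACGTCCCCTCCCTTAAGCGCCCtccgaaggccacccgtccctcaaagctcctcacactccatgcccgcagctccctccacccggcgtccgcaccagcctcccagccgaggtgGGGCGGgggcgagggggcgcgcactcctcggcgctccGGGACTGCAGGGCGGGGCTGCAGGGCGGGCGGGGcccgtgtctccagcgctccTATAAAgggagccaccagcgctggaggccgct
VAMP8: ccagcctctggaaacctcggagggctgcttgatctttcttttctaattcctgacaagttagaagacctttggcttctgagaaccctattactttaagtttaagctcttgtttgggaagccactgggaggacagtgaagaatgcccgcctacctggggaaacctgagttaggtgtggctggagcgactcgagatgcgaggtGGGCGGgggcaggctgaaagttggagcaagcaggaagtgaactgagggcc
SPINK6: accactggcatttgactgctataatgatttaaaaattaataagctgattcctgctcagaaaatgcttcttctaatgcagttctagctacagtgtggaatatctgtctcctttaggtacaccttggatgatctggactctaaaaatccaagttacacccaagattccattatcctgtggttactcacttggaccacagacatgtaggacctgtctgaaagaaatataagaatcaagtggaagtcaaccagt

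The promoters differed in composition. AQP3 had 73.6% G and C, MUC1 had 66%, VAMP8 had 52.8% and SPINK6 had 38.8%, beside a median of 58% over all 35116 promoter windows of this length. TATAAA ended 19 bases before the start of MUC1 and 27 bases before that of AQP3, and it is held by 10.7% of all windows. GGGCGG occurred 4 times in MUC1, 4 times in AQP3 and 1 time in VAMP8, and it is held by 42.6% of all windows. The G quadruplex motif occurred in MUC1, as 2 overlapping matches between 54 and 30 bases before the start, and in AQP3, as 4 overlapping matches between 85 and 52 bases before the start and 1 on the opposite strand between 242 and 213 bases before it. In both genes the matches on the strand of the gene overlap matches to GGGCGG. Of all windows, 23.5% hold the motif. VAMP8 and SPINK6 had no match to it in these windows. No match in the 4 windows was found for the AP-1 motif TGACTCA or its reverse complement TGAGTCA, held by 4.20% of all windows. The same was true of the cAMP response element TGACGTCA, held by 1.65%, and of the forkhead motif TGTTTAC, held by 2.98%.

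In vehicle, 7 of the 8 members were lower in the libraries labelled PARP3-/- than in WT, with no overlap between the groups, and MUC1 was not. Over all genes tested, 9.17% were lower without overlap in this comparison, and nothing is read from the members' count, since these values chose them. With pyridostatin the same 7 members were lower without overlap, against 15.9% of all genes tested. In bulk RNA fewer cells that make a transcript and less transcript per cell cannot be told apart.

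SPINK6 and DEFB1 had the lowest values in the libraries labelled PARP3-/-. SPINK6 was at 7.09, 6.50 and 4.29 FPKM in WT vehicle and at 0.237, 0.143 and 0.0786 FPKM in PARP3-/- vehicle. With pyridostatin it was at 5.63, 5.52 and 6.36 FPKM in WT and at 0.175, 0.180 and 0.183 FPKM in PARP3-/-. All 6 libraries labelled PARP3-/- lay far below the lowest WT library, and the mean was 2.56% of WT in vehicle and 3.07% with pyridostatin. On the log2(FPKM + 1) scale the difference was -2.57 ± 0.20 (SE, n = 3 per group) in vehicle and -2.53 ± 0.06 with pyridostatin. This scale understates changes of low genes, and with a pseudocount of 0.1 in place of 1 the differences were -4.60 and -4.41.

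DEFB1 was at 6.89, 9.28 and 6.72 FPKM in WT vehicle and at 0.862, 0.735 and 0.162 FPKM in PARP3-/- vehicle. With pyridostatin the values were 5.36, 5.93 and 6.75 FPKM in WT and 0.683, 1.12 and 0.427 FPKM in PARP3-/-. The mean in the libraries labelled PARP3-/- was 7.68% of WT in vehicle and 12.4% with pyridostatin, and the log2 differences were -2.46 ± 0.25 and -2.02 ± 0.19 (SE, n = 3 per group). The spread was wide at this level, with a coefficient of variation of 63.7% in PARP3-/- vehicle against 18.7% in WT vehicle. After each value was multiplied by the estimated depth of its library, the DEFB1 values came out as multiples of the smallest value, at 7, 5 and 1 in PARP3-/- vehicle and 5, 8 and 3 in PARP3-/- pyridostatin, against 48, 68 and 44 in WT vehicle and 40, 52 and 49 in WT pyridostatin. If the smallest value stands for a single read, the levels in the libraries labelled PARP3-/- rest on a handful of reads, and their differences from each other are not detectable at this depth. For SPINK6 the same multiples were 1 to 3.95 in the libraries labelled PARP3-/- and 57.8 to 101 in WT.

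**Figure D1:**
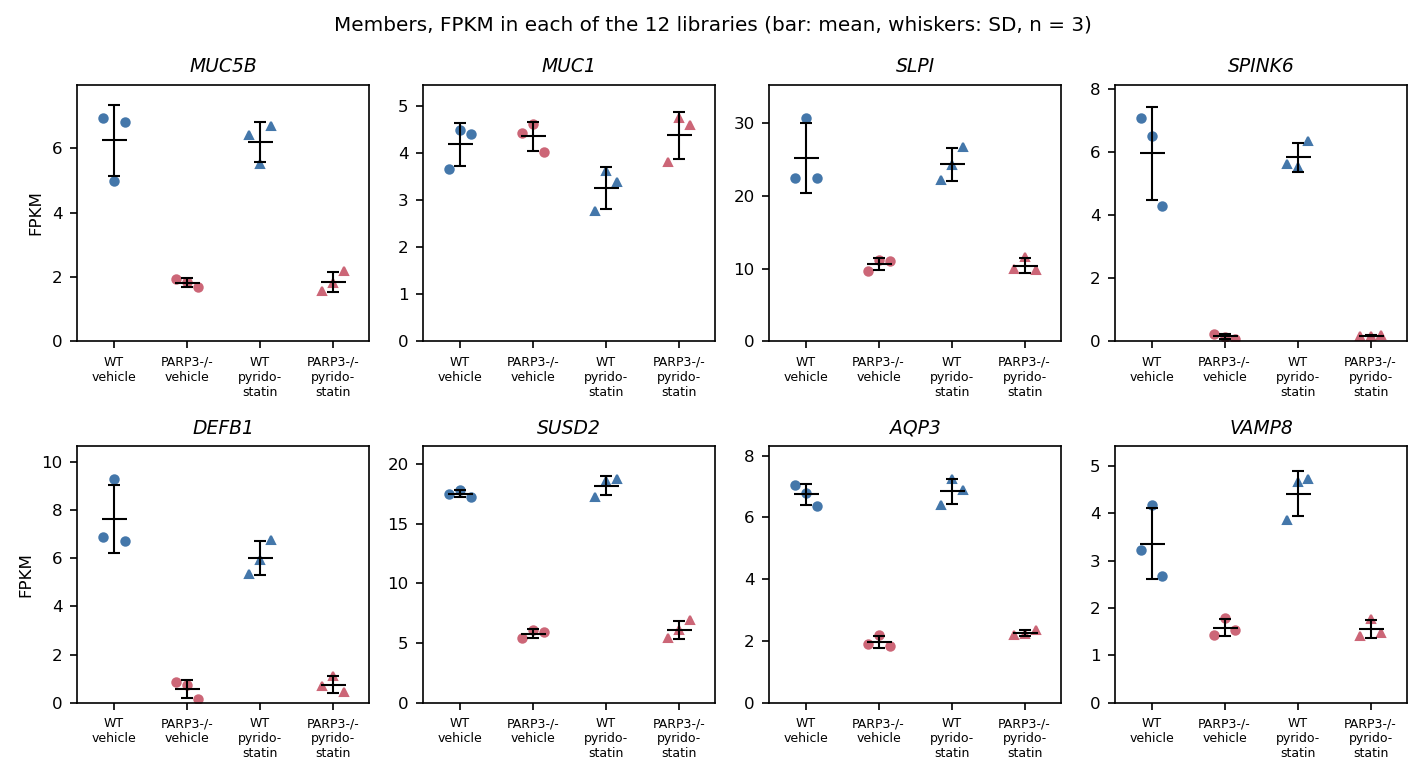
FPKM of the 8 members in each of the 12 libraries (y axis from 0, a scale per gene), with WT in blue, libraries labelled PARP3-/- in red, circles for vehicle, triangles for 1 µM pyridostatin, bars for the mean and whiskers for the SD (n = 3). In 7 panels every red point lies below every blue point, and SPINK6 does not exceed 0.237 FPKM in a red point; MUC1 does not show this order.

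Of the mucins, MUC5B was at 6.94, 4.97 and 6.82 FPKM in WT vehicle and at 1.94, 1.85 and 1.68 FPKM in PARP3-/- vehicle. With pyridostatin it was at 6.42, 5.50 and 6.68 FPKM in WT and at 1.56, 1.81 and 2.17 FPKM in PARP3-/-. The groups labelled PARP3-/- were at 29.2% and 29.8% of WT, with log2 differences of -1.35 ± 0.14 and -1.34 ± 0.12 (SE, n = 3 per group). MUC1 behaved differently. It was at 3.66, 4.51 and 4.40 FPKM in WT vehicle and at 4.44, 4.62 and 4.02 FPKM in PARP3-/- vehicle, and these groups overlapped. With pyridostatin it was at 2.77, 3.62 and 3.40 FPKM in WT and at 3.81, 4.75 and 4.59 FPKM in PARP3-/-, where the lowest library labelled PARP3-/- lay above the highest WT library. The log2 differences were 0.05 ± 0.09 in vehicle and 0.34 ± 0.12 with pyridostatin.

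SLPI had the highest level of the members. It was at 22.5, 30.7 and 22.4 FPKM in WT vehicle and at 9.64, 11.2 and 11.1 FPKM in PARP3-/- vehicle, and with pyridostatin at 22.1, 24.2 and 26.7 FPKM in WT and at 9.89, 11.5 and 9.75 FPKM in PARP3-/-. The means of the groups labelled PARP3-/- were 42.2% and 42.7% of WT, and the log2 differences were -1.16 ± 0.16 and -1.15 ± 0.10. SUSD2 had the tightest replicates in WT vehicle, at 17.5, 17.9 and 17.2 FPKM, against 5.40, 6.06 and 5.94 FPKM in PARP3-/- vehicle. With pyridostatin it was at 17.3, 18.6 and 18.7 FPKM in WT and at 5.41, 6.06 and 6.90 FPKM in PARP3-/-, so that the means were 33.1% and 33.7% of WT and the log2 differences -1.45 ± 0.05 and -1.43 ± 0.09.

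AQP3 was at 7.05, 6.80 and 6.37 FPKM in WT vehicle and at 1.89, 2.19 and 1.84 FPKM in PARP3-/- vehicle. With pyridostatin it was at 6.41, 7.23 and 6.89 FPKM in WT and at 2.19, 2.22 and 2.37 FPKM in PARP3-/-, which put the groups labelled PARP3-/- at 29.3% and 33.0% of WT, with log2 differences of -1.38 ± 0.06 and -1.27 ± 0.05. VAMP8 was the least reduced of the 7 genes in vehicle, at 47.1% of WT, while with pyridostatin it was at 35.2% of WT and SLPI was the least reduced. VAMP8 was at 3.23, 4.17 and 2.68 FPKM in WT vehicle and at 1.44, 1.79 and 1.53 FPKM in PARP3-/- vehicle, and the gap between the nearest libraries of the groups was 0.894 FPKM. With pyridostatin it was at 3.86, 4.67 and 4.71 FPKM in WT and at 1.41, 1.77 and 1.47 FPKM in PARP3-/-, a gap of 2.09 FPKM. The log2 differences for VAMP8 were -0.74 ± 0.15 and -1.08 ± 0.10 (SE, n = 3 per group).

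The order of the levels changed with the genotype label. FPKM is per length, so levels can be set beside each other between genes. In WT vehicle the means ran from SLPI (25.2 FPKM) and SUSD2 (17.5) through DEFB1 (7.63), AQP3 (6.74), MUC5B (6.24), SPINK6 (5.96) and MUC1 (4.19) to VAMP8 (3.36). From DEFB1 to VAMP8 each gene overlapped the next in its range over the 3 libraries. In PARP3-/- vehicle the order was SLPI (10.6 FPKM), SUSD2 (5.80), MUC1 (4.36), AQP3 (1.98), MUC5B (1.82), VAMP8 (1.58), DEFB1 (0.586) and SPINK6 (0.153). There AQP3, MUC5B and VAMP8 overlapped each with the next, as did DEFB1 with SPINK6.

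WT vehicle replicate 2, the library with the highest summed FPKM, had the highest value of its group for SLPI, DEFB1, VAMP8, MUC1 and SUSD2. It had the lowest for MUC5B. Without it the log2 differences in vehicle were -1.01 for SLPI, -2.33 for DEFB1, -0.61 for VAMP8 and -1.48 for MUC5B. For SUSD2 and MUC1 they were -1.43 and 0.09, and 7 members were still lower without overlap. The summed markers of other cell types were mostly higher in the libraries labelled PARP3-/-. None of these lists had more than 1 gene with a mean of at least 1 FPKM. The ciliated sums overlapped between genotypes with pyridostatin, as did the epithelial sums in vehicle. The summed alveolar type II markers (1 of 9 with a mean of at least 1 FPKM, ABCA3) were 9.29 to 10.0 FPKM in WT vehicle, 11.0 to 11.2 in PARP3-/- vehicle, 9.91 to 10.3 in WT pyridostatin and 11.2 to 11.9 in PARP3-/- pyridostatin. The ciliated cell markers (0 of 5) summed to 0.985 to 1.34, 1.37 to 1.54, 1.06 to 1.31 and 1.29 to 1.48 FPKM and the endothelial markers (0 of 4) to 0.181 to 0.213, 0.245 to 0.337, 0.116 to 0.174 and 0.298 to 0.375 FPKM in the same order. The summed fibroblast markers (1 of 5 with a mean of at least 1 FPKM) were 0.659 to 0.945 FPKM in WT vehicle, 1.56 to 1.83 in PARP3-/- vehicle, 0.807 to 1.06 in WT pyridostatin and 1.67 to 2.05 in PARP3-/- pyridostatin, with COL1A2 at no more than 0.00794 FPKM. The summed leukocyte markers (1 of 5) were 3.41 to 4.55, 4.89 to 6.30, 2.83 to 3.34 and 4.39 to 4.89 FPKM in the same order, nearly all of it CD14, with PTPRC at no more than 0.00776 FPKM and CD3E listed at 0 in every library. The summed basal cell markers (1 of 4, TP63) were 1.42 to 1.69, 2.00 to 2.46, 1.41 to 1.68 and 2.33 to 2.43 FPKM, with KRT5 at no more than 0.0592 FPKM. The summed epithelial markers (5 of 6) were 5714 to 6807, 5333 to 5883, 6022 to 6152 and 5151 to 5670 FPKM. Their part in the members' differences was not tested.

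Pyridostatin moved none of the 8 members past an adjusted p of 0.05 in WT or in PARP3-/- cells (limma on log2(FPKM + 1), two-sided, Benjamini-Hochberg over the 11881 genes). In WT 2.79% of all genes rose and 1.38% fell, and in PARP3-/- 3.05% rose and 2.52% fell. The median log2 response of the members was -0.0024 in WT and 0.021 in PARP3-/-, beside 0.0030 and 0.0021 over all genes tested.

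In WT, 2 of the 8 members had an unadjusted p under 0.05, as did 2410 of all 11881 genes, so that the members' share is near the background. MUC1 went from the values of 3.66 to 4.51 FPKM in vehicle to 2.77 to 3.62 FPKM with pyridostatin, groups that did not overlap, with a log2 response of -0.29 ± 0.10 (SE, limma adjusted p = 0.137). Over the alternative settings its adjusted p ran from 0.0636 to 0.379. VAMP8 had a log2 response of 0.32 ± 0.12 (limma adjusted p = 0.163), and the lowest library with pyridostatin, at 3.86 FPKM, lay below the highest vehicle library, at 4.17 FPKM. That vehicle library was replicate 2, and without it the response of VAMP8 was 0.45 and passed the threshold (limma adjusted p = 0.0318), the only member and omission for which this happened. The response of DEFB1 in WT was -0.29 ± 0.20 with overlapping groups. For MUC5B, SLPI, SPINK6, SUSD2 and AQP3 the response in WT lay between -0.04 and 0.05, with standard errors of 0.06 to 0.13.

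In the cells labelled PARP3-/- no member had an unadjusted p under 0.05, beside 2329 of all 11881 genes. The nearest was AQP3, at 1.84 to 2.19 FPKM in vehicle and 2.19 to 2.37 FPKM with pyridostatin, with a log2 response of 0.13 ± 0.06 (limma adjusted p = 0.266). DEFB1 had a response of 0.15 ± 0.20, and MUC5B, MUC1, SLPI, SPINK6, SUSD2 and VAMP8 had responses between -0.03 and 0.06. SPINK6 (means of 0.153 and 0.179 FPKM) and DEFB1 (0.586 and 0.744 FPKM) passed the filter only through their WT levels. The scale understates changes at such low levels. For these 2 genes, nothing is read from the lack of a call in PARP3-/- cells or in the interaction. The difference of the responses between genotypes was tested as an interaction, and it passed the threshold for none of the 8 members, with no unadjusted p under 0.05. Over all genes 0.00% passed, the smallest limma adjusted p was 0.587, and 521 genes had an unadjusted p under 0.05. The widest interactions among the members were 0.44 ± 0.28 for DEFB1, -0.34 ± 0.17 for VAMP8 and 0.29 ± 0.14 for MUC1 (limma adjusted p = 0.999 for each). With standard errors of this size, responses of the magnitude seen for VAMP8 and MUC1 in WT could be missed in the other genotype.

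**Figure D2:**
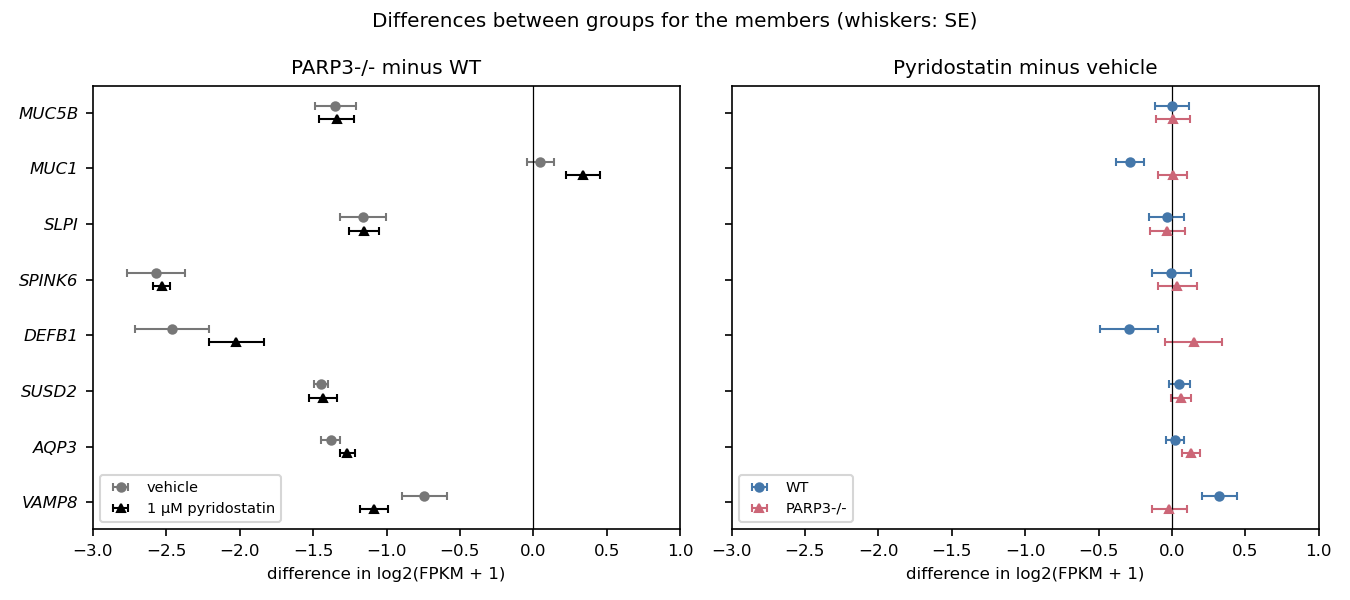
Differences in log2(FPKM + 1) for the 8 members, left between PARP3-/- and WT in vehicle (grey circles) and 1 µM pyridostatin (black triangles), right between pyridostatin and vehicle in WT (blue circles) and PARP3-/- (red triangles), with whiskers for the SE. The left panel runs to -2.57 for SPINK6, and all responses to pyridostatin in the right panel lie between -0.29 and 0.32.

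The other genes of the same functions were listed from general knowledge in 7 groups, 246 genes in all with the members left out. Of these, 105 passed the filter. The lists were made with earlier results of these data known, so their counts are no independent test. In vehicle, 23 of the 105 were higher and 11 were lower in cells labelled PARP3-/- (limma, adjusted p under 0.05), beside 6.40% and 3.01% of all genes tested. With pyridostatin, 27 were higher and 9 lower, beside 7.07% and 3.85% of all genes. The median log2 difference of the list was 0.02 in vehicle and 0.05 with pyridostatin, beside 0.01 and 0.01 over all genes. The split depended on the scaling, as did that of all genes. Without scaling, 760 of all genes were higher and 358 lower in vehicle, and 840 and 457 with pyridostatin. With the medians of all libraries made equal the split of the list was 18 higher and 15 lower in vehicle, beside 561 and 524 of all genes. With pyridostatin it was 22 and 12, beside 676 and 596. Quantile normalization gave 25 and 14 with pyridostatin, beside 803 and 613. No gene of the list was called with a log2 difference above 1 in vehicle, and 2 were with pyridostatin.

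Of the other mucins, 4 of 18 were tested, and PODXL and MUC3A were higher in both comparisons. PODXL, a sialomucin of the apical membrane, was at 7.58 to 8.17 FPKM in WT vehicle and 15.4 to 16.2 FPKM in PARP3-/- vehicle, a log2 difference of 0.91 ± 0.05 (limma adjusted p = 8.34e-07). With pyridostatin the difference was 0.93 ± 0.05. MUC3A, a transmembrane mucin with a near-identical neighbour that can share its reads, was at 1.58 to 2.01 FPKM in WT vehicle and 3.66 to 4.17 FPKM in PARP3-/- vehicle, with log2 differences of 0.83 ± 0.08 in vehicle and 1.06 ± 0.08 under pyridostatin (limma adjusted p = 6.57e-05 and 1.25e-05). PODXL and MUC3A thus moved opposite to MUC5B, which was chosen with its difference known. CD164 and MUC13 were not called. MUC13, also a transmembrane mucin, was lower without overlap in vehicle (log2 -0.13), while its groups overlapped with pyridostatin.

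The partners of mucin assembly and glycosylation had 6 higher and 2 lower of 17 in vehicle, and 5 higher and 1 lower with pyridostatin. TFF1, a trefoil peptide secreted with mucins, was at 8.0 to 12.7 FPKM in WT vehicle and 12.1 to 15.8 FPKM in PARP3-/- vehicle, and with pyridostatin at 7.34 to 7.80 and 12.3 to 13.8 FPKM, a log2 difference of 0.72 ± 0.14 (limma adjusted p = 0.00725). ST3GAL1, which caps O-glycans with sialic acid, was lower, with log2 differences of -0.34 in vehicle and -0.37 ± 0.05 under the drug (limma adjusted p = 0.00188 and 0.000995). Of the antimicrobial and mucosal immune proteins, 7 of 53 were tested. LCN2, a siderophore-binding protein, C3, a complement component, and CD59, an inhibitor of complement lysis, were higher in both comparisons. CD55 was lower in both and CCL20 was lower in vehicle. These 5 genes are named for the small counts, after their values were seen. LCN2 had log2 differences of 0.42 and 0.55 and C3 of 0.45 and 0.47.

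The antiproteases had 4 higher and 1 lower of 16 in vehicle, and 5 and 1 with pyridostatin. CST1, a secreted cystatin with close paralogs, was the gene that was lower, at 1.87 to 2.82 FPKM in WT vehicle and 0.698 to 0.851 FPKM in PARP3-/- vehicle, with log2 differences of -0.90 ± 0.10 and -0.74 ± 0.10 (limma adjusted p = 0.000196 and 0.000734). The direction of CST1 is that of SLPI and SPINK6, which were chosen with their difference known. Its mean was 2.34 FPKM in both WT groups, against 0.782 FPKM in PARP3-/- vehicle and 1.00 FPKM in PARP3-/- pyridostatin. CST1 thus reached the filter mainly through its WT levels, and its call is no independent support for those members. All other antiproteases called in either comparison were higher, opposite to SLPI and SPINK6. PI3 was not called, but it was lower without overlap in both comparisons. Its log2 differences were -0.37 and -0.51 (limma adjusted p = 0.217 and 0.0759).

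The SNARE and exocytosis genes, the group of VAMP8, had 5 higher and 2 lower of 34 in vehicle, and 6 and 2 with pyridostatin. RAB3B, a GTPase of secretory vesicles, was at 1.46 to 1.89 FPKM in WT vehicle and 3.52 to 3.84 FPKM in PARP3-/- vehicle, with log2 differences of 0.77 ± 0.07 and 0.75 ± 0.07 (limma adjusted p = 5.39e-05 and 6.93e-05). SYTL2, a synaptotagmin-like effector of RAB27, had log2 differences of 0.50 ± 0.09 and 0.34 (limma adjusted p = 0.00613 and 0.0422). CPLX2, a complexin that binds the assembled SNARE complex, was at 217 to 227 FPKM in WT vehicle and 103 to 122 FPKM in PARP3-/- vehicle, with log2 differences of -0.96 ± 0.05 and -1.12 ± 0.05 (limma adjusted p = 1.45e-06 and 4.92e-07). UNC13D, which primes granules for release, had log2 differences of -0.44 ± 0.06 and -0.46 ± 0.06 (limma adjusted p = 0.00108 and 0.000731). Of the water and ion channels, the group of AQP3, 6 of 27 were tested and none was called in either comparison. Of all genes, 6.40% were called higher and 3.01% lower in vehicle, and 7.07% and 3.85% with pyridostatin. In each comparison 1 channel had an unadjusted p under 0.05, beside 2564 and 2855 of all 11881 genes. With 6 genes, nothing is read from the lack of a call.

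The transcription factors of secretory epithelia had 3 higher and 4 lower of 21 in vehicle, and 6 higher and 4 lower with pyridostatin. The 3 that were higher in vehicle, SOX2, FOXA1 and TP63, were also higher with pyridostatin, and they are named after their values were seen. Their log2 differences were 0.42 and 0.59 for SOX2, 0.26 and 0.35 for FOXA1, and 0.34 and 0.46 for TP63. XBP1, likewise named after its values were seen, was lower without overlap in both comparisons, as was SPDEF. The log2 differences of XBP1 were -0.25 and -0.24 (limma adjusted p = 0.0301 and 0.0311). SPDEF, a factor of goblet cell differentiation, was at 7.29 to 9.12 FPKM in WT vehicle and 4.28 to 6.53 FPKM in PARP3-/- vehicle, and with pyridostatin at 5.52 to 6.33 and 3.40 to 4.08 FPKM. Its log2 differences were -0.51 ± 0.12 and -0.57 ± 0.12 (limma adjusted p = 0.0233 and 0.0116). The call in vehicle was lost without WT vehicle replicate 1 or 2 or PARP3-/- vehicle replicate 1 or 2 (limma adjusted p = 0.0566 to 0.0586) and with only the libraries of the comparison fitted (0.141), and that with pyridostatin without PARP3-/- pyridostatin replicate 3 (limma adjusted p = 0.0525). CEBPB, a factor of acute phase genes, was at 38.1 to 48.3 FPKM in WT vehicle and 23.9 to 27.9 FPKM in PARP3-/- vehicle, a log2 difference of -0.65 ± 0.12 (limma adjusted p = 0.00715). With pyridostatin the difference was -0.06 and not called.

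**Figure D3:**
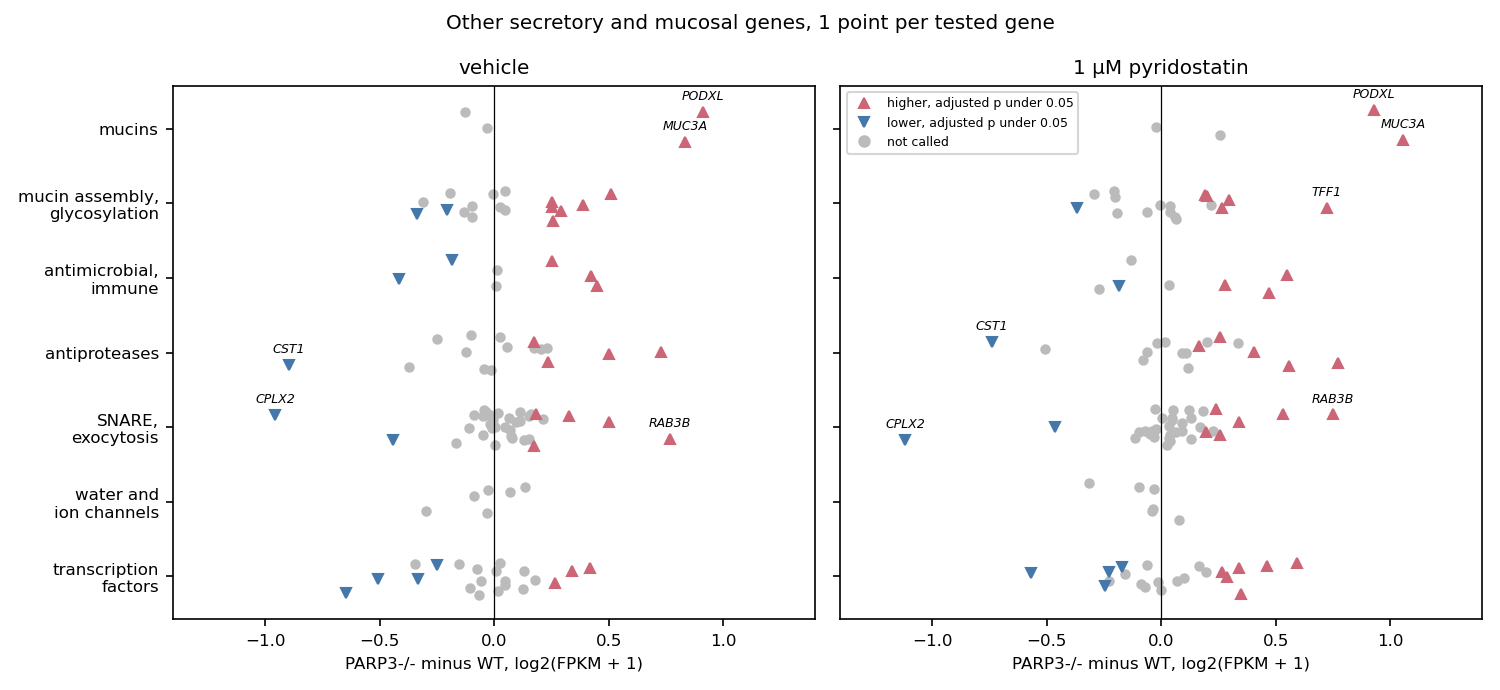
Differences between PARP3-/- and WT in log2(FPKM + 1) for the 105 tested genes of the 7 groups, in vehicle (left) and 1 µM pyridostatin (right), with red triangles for genes called higher, blue triangles for genes called lower and grey circles for genes not called; points are spread vertically within a group for legibility. The outermost points are CPLX2 on the left of each panel, at -0.96 and -1.12, and PODXL (0.91) and MUC3A (1.06) on the right. None of the 6 water and ion channels tested is called.

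With pyridostatin, 2 of the 105 genes of this list rose and 2 fell in WT, beside 2.79% and 1.38% of all genes tested. In PARP3-/- 8 rose and 1 fell, beside 3.05% and 2.52%. No interaction was called, with 7 at an unadjusted p under 0.05. With equal medians the split in WT was 2 and 4, while that of all genes went from 331 and 164 to 246 and 294. In PARP3-/- it was 4 and 1, while that of all genes went from 362 and 299 to 292 and 352. Under quantile normalization the split was 10 and 3 in PARP3-/-, beside 391 and 297 of all genes. EXOC3, a subunit of the exocyst, which tethers secretory vesicles, rose in both genotypes, from 19.8 to 20.7 FPKM to 27.4 to 28.9 FPKM in WT (log2 0.45 ± 0.04, limma adjusted p = 0.000184) and from 20.2 to 22.0 FPKM to 28.5 to 29.1 FPKM in PARP3-/- (0.43 ± 0.04, limma adjusted p = 0.000204). DNAJC5, a chaperone of secretory vesicles, rose by a log2 of 0.27 ± 0.04 in WT (limma adjusted p = 0.0045) and by 0.27 in PARP3-/-. Its call in WT was lost when only the libraries of the comparison were fitted (limma adjusted p = 0.0812).

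In WT, CCL20, a chemokine of mucosal epithelia, went from 3.25 to 3.82 FPKM to 1.84 to 2.40 FPKM (log2 -0.54 ± 0.11, limma adjusted p = 0.0198), and MUC13, a transmembrane mucin, from 11.88 to 11.99 FPKM to 9.98 to 10.7 FPKM (log2 -0.20 ± 0.04, limma adjusted p = 0.0321). The call of CCL20 was lost without WT vehicle replicate 3 or WT pyridostatin replicate 1 or 2 (limma adjusted p = 0.0541 to 0.0834) and with only the libraries of the comparison fitted (0.0812). That of MUC13 was lost without WT vehicle replicate 1 or 3, WT pyridostatin replicate 1 or 2, or PARP3-/- vehicle replicate 2 or 3 (limma adjusted p = 0.0507 to 0.131), and with only the libraries of the comparison fitted (0.164). In PARP3-/- cells CEBPB rose from 23.9 to 27.9 FPKM to 36.1 to 44.8 FPKM (log2 0.56 ± 0.12, limma adjusted p = 0.0272), a call lost without any 1 of the 6 libraries labelled PARP3-/- (limma adjusted p = 0.057 to 0.102). FOXA2, a factor of airway epithelial differentiation, had a log2 response of 0.37 ± 0.09 (limma adjusted p = 0.0484). This call was lost in 10 of the 12 omissions (limma adjusted p = 0.0531 to 0.162), the exceptions being WT vehicle replicate 2 and WT pyridostatin replicate 2. It was also lost without a filter (limma adjusted p = 0.0784), with equal medians (0.0648) and without the trend (0.0530). SNAP25, a SNARE protein, had a log2 response of -0.21 ± 0.04 (limma adjusted p = 0.0121), a call lost without PARP3-/- vehicle replicate 2 or PARP3-/- pyridostatin replicate 2 or 3 (limma adjusted p = 0.057 to 0.0597).

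The nearest genes in the genome were read for 4 members, taking the 2 on each side in RefSeq order that have a row in the table. SPINK6 lies on chromosome 5 among other Kazal-type inhibitors, and the next of them that had reads, SPINK13, followed the same pattern. SPINK13 was at 1.58 to 2.59 FPKM in WT vehicle and 1.29 to 2.32 FPKM in WT pyridostatin, while in PARP3-/- vehicle it was at 0 to 0.125 FPKM and in PARP3-/- pyridostatin it was listed at 0 in all 3 libraries. SPINK5 was at no more than 0.0578 FPKM in WT and was listed at 0 in every library labelled PARP3-/-, and SPINK14 and SPINK7 were listed at 0 throughout. SPINK13 had a mean under 1 FPKM and was not tested.

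For MUC5B on chromosome 11, the neighbouring mucin MUC2 was at no more than 0.127 FPKM in any group and MUC6 at no more than 0.00483 FPKM. TOLLIP, an adaptor of innate immune signalling on the other side, was at 11.7 to 13.0 FPKM in WT vehicle and 12.2 to 13.3 FPKM in PARP3-/- vehicle, and with pyridostatin at 12.4 to 12.9 and 13.7 to 13.8 FPKM. It was not lower in the libraries labelled PARP3-/-. For SUSD2 on chromosome 22, CABIN1 was at 5.39 to 5.71 FPKM in WT vehicle and 5.55 to 5.87 FPKM in PARP3-/- vehicle, and with pyridostatin at 5.79 to 6.03 and 5.27 to 6.02 FPKM, so that the groups overlapped in each treatment. GGT5, on the other side, was at 0.159 to 0.361 FPKM in WT vehicle and 0.0452 to 0.180 FPKM in PARP3-/- vehicle, which overlapped. Under pyridostatin GGT5 was at 0.141 to 0.226 FPKM in WT and 0.0573 to 0.120 FPKM in PARP3-/-, lower without overlap, as SUSD2 was, but at a level too low for the test. For SLPI on chromosome 20, the most highly expressed neighbour, MATN4, did not exceed 0.132 FPKM.

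**Figure D4:**
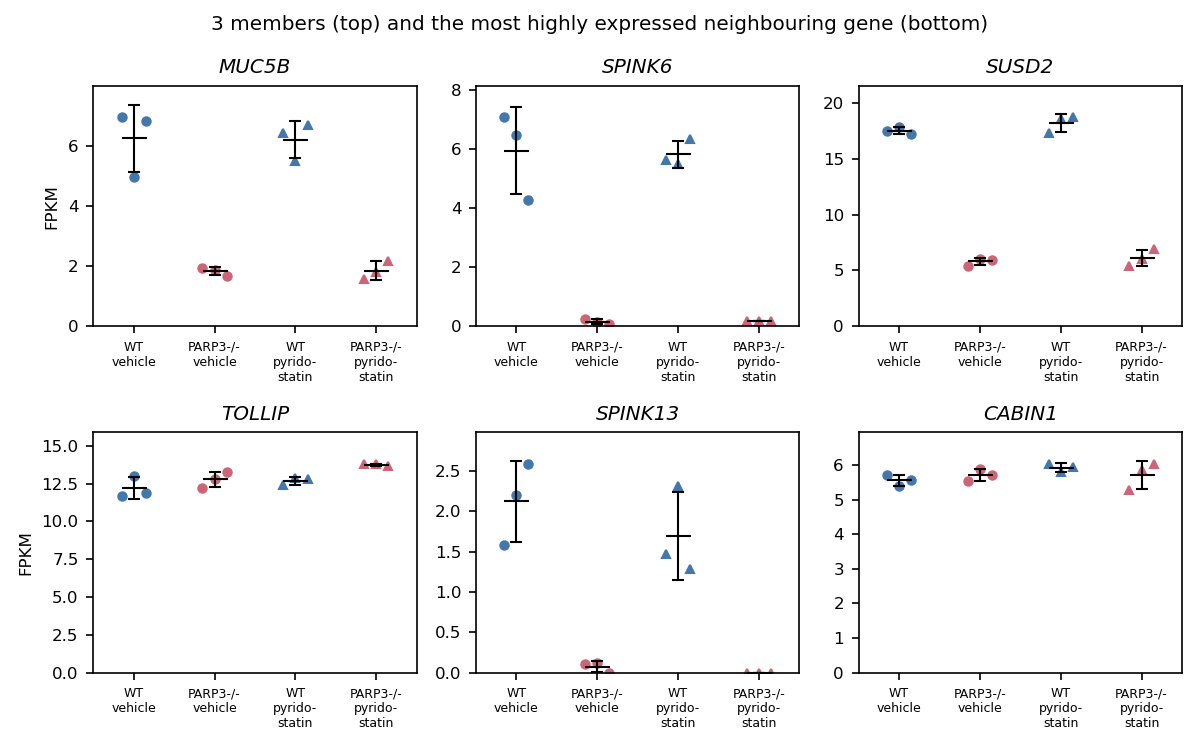
FPKM in the 12 libraries (y axes from 0) for MUC5B, SPINK6 and SUSD2 (top) and for the neighbour with the highest level of each (bottom), with WT in blue, libraries labelled PARP3-/- in red, circles for vehicle, triangles for 1 µM pyridostatin, bars for the mean and whiskers for the SD (n = 3). SPINK13 is at 0.125 FPKM or less in every red point, whereas TOLLIP is not lower there and the red and blue points of CABIN1 overlap in each treatment.

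The profiles of the members over the 12 libraries were compared with those of the other genes tested, by the root mean square difference of log2(FPKM + 1) after each gene was centred on its mean. This is a description, since the difference between genotypes dominates each profile. SUSD2 and AQP3 were nearest to each other of all genes tested, at a distance of 0.09. SUSD2 was also the gene nearest to MUC5B, at 0.14, followed by FILIP1 and NPY4R, the latter with a near-identical copy that can share its reads. DEFB1 and SPINK6 lay at 0.28 from each other. The gene nearest to SPINK6 was CPS1, the mitochondrial enzyme that starts the urea cycle, at 0.23, with 11.1 to 13.8 FPKM in WT vehicle and 1.07 to 1.27 FPKM in PARP3-/- vehicle. H19, a long noncoding RNA of an imprinted locus, was among the 3 nearest to both DEFB1 and SPINK6, with 9.57 to 11.0 FPKM in WT vehicle and 1.11 to 1.59 FPKM in PARP3-/- vehicle, and the third gene near DEFB1 was CYP4F11, a cytochrome P450.

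The nearest genes of SLPI were FXYD2, a regulator of the sodium pump, at 0.12, CEACAM5, an epithelial adhesion molecule, and FGG, a fibrinogen chain. CEACAM5 and FXYD2 were also near AQP3, and FGA, another fibrinogen chain, and CES1, a carboxylesterase, were near SUSD2. FGA was at 6.12 to 6.65 FPKM in WT vehicle and 1.45 to 2.25 FPKM in PARP3-/- vehicle. The nearest genes of VAMP8 were CST1 at 0.15, PDK4 and NUPR1. Among the members, the largest distance was that between MUC1 and SPINK6, at 1.39.

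**Figure D5:**
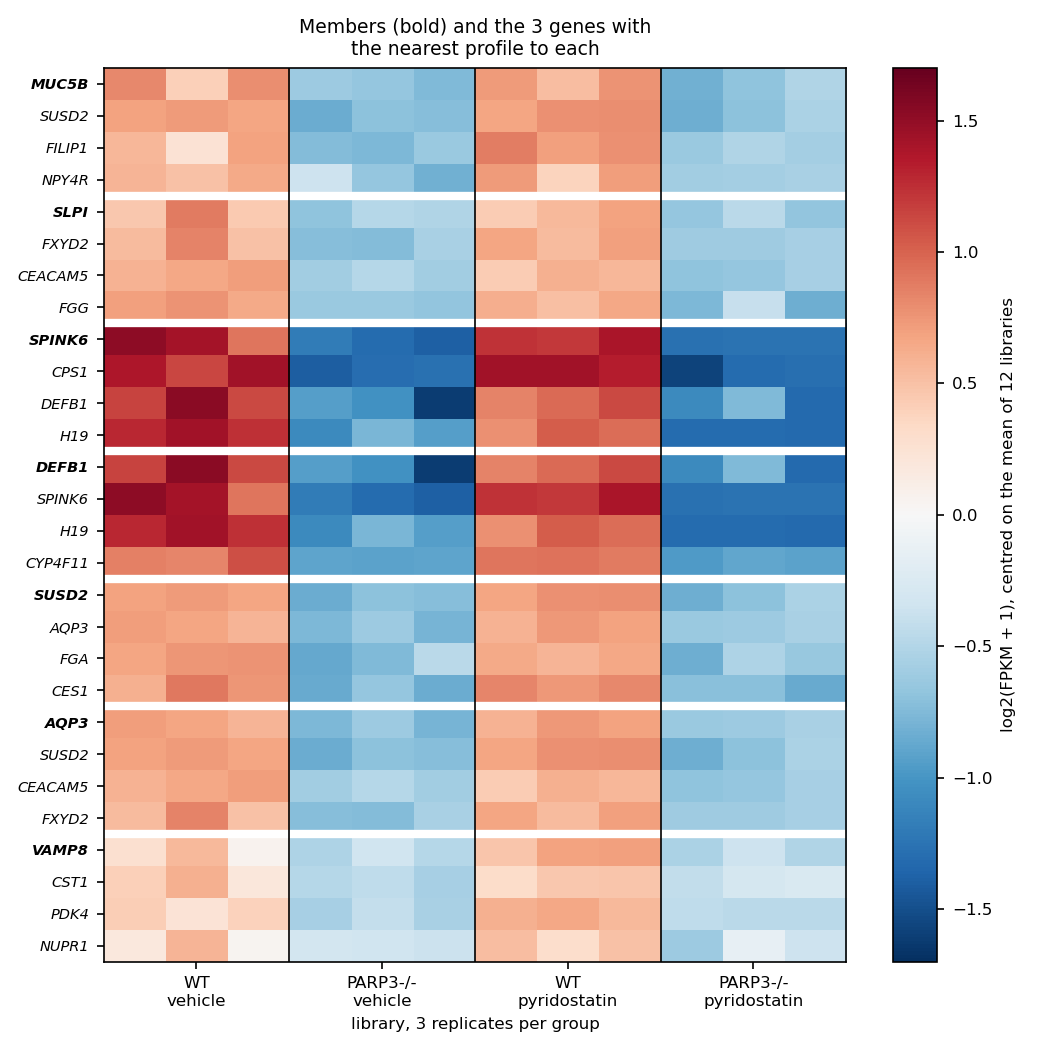
Colour map of log2(FPKM + 1), centred on each gene's mean over the 12 libraries (red above, blue below, columns are libraries in 4 groups of 3), for 7 members (bold) and below each the 3 genes with the smallest root mean square difference from it. WT columns are red and PARP3-/- columns blue in each block, with the strongest colours for SPINK6, DEFB1, CPS1 and H19 and the palest for VAMP8 and its nearest genes.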

How the data were processed

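A single table of FPKM values over 25365 gene symbols and 12 libraries was used. The deposited FPKM values were made by the authors from stranded, single-end reads of 75 bases, and the submitters' processing notes name bcl2fastq 2.16, STAR 2.5 and Cufflinks and the builds hg19 and mm9, without roles. FPKM are not counts, so the count test of the study was not run. Values were analysed as log2(FPKM + 1) with limma 3.58.1 in R 4.3.3 (linear model with 1 coefficient per group, empirical Bayes moderation with a trend, all 12 libraries), for genes whose mean reached 1 FPKM, with Benjamini-Hochberg adjustment over 11881 genes and a threshold of 0.05. The test was checked on simulated data. A gene's groups "do not overlap" where every library of a group lies beyond every library of the other.

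The members and lists were chosen with earlier results of these data known. Genes of the lists were named where they were called, their groups did not overlap, and they had 1 of the 5 largest rises or falls between genotypes, or 1 of the 3 largest with pyridostatin, or a called log2 difference above 1. A gene that this rule names is not reported here. Sequencing depth was estimated from 1524 genes with a single GENCODE 29 transcript of at least 1500 bases, as the depth at which the most genes stand at 1 read over the length less 200 bases; between 26.1% and 33.6% of the lowest values fell in that step. Promoters were matched by symbol (4 of 9 members); the search covered the 250 bases before the start, and the 50 transcribed bases of each window were left out. Replicate numbers were checked for pairing by the correlation of deviations from the group means over 11881 genes, which ran from -0.12 to 0.216 and was not over 0.1 in every pair of any comparison, so the libraries were treated as unpaired. Alternatives were another pseudocount, other filters, quantile and median scaling, fits on the libraries of a comparison alone, no trend, a replicate block, a fold threshold and omission of each library.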

Additional observations from a re-analysis of the deposited data

Results flagged for a closer look

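VAMP4, a SNARE protein of the trans-Golgi network on the wider list, was the only result noted here, because its libraries moved in opposite directions with pyridostatin in WT and PARP3-/- cells. Its log2 response in PARP3-/- cells exceeded that in WT by 0.27, with responses of -0.17 in WT and 0.10 in PARP3-/-. The interaction had an unadjusted limma p of 0.0118 and an adjusted p of 0.999 over all genes tested, so the difference did not pass the threshold. The groups of 3 libraries were too small for a search for single outlying libraries.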

How the results depend on the processing

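For single genes the alternatives were run on the members and on the results named by the rule. No called result among these changed direction. Other called results, such as those of LCN2, C3 and SOX2, were not run singly. In 16 uncalled or untested results of the members, all but 1 of them responses or interactions with pyridostatin, the sign changed under an alternative; among them, the difference of MUC1 between genotypes in vehicle (0.05) went to -0.03, the response of DEFB1 in PARP3-/- (0.15) to -0.06 and that of AQP3 in WT (0.02) to -0.02. As counts, 7 members were lower without overlap in both genotype comparisons under all 15 alternatives run for that count. No member was called for pyridostatin or the interaction, except that without WT vehicle replicate 2 the count in WT was 1 (VAMP8), so that over the omissions of a library it ran from 0 to 1. For the wider list, the 34 genes called between genotypes in vehicle became 18 when only the libraries of the comparison were fitted and 0 with a log2 fold above 1 required, and 24 to 40 over the omissions. The 36 with pyridostatin became 2 with that fold and 22 to 45 over the omissions, with 23 without WT pyridostatin replicate 1 and 22 without PARP3-/- pyridostatin replicate 3. The 4 that responded in WT became 7 under quantile normalization, 1 with the comparison's libraries alone and 0 with the fold, and 2 to 6 over the omissions, with 2 without WT pyridostatin replicate 1. The 9 in PARP3-/- became 5 without a filter, 5 after the shift to a common median and 0 with the fold, and 2 to 16 over the omissions. There the count was 16 without WT vehicle replicate 2, 5 without WT vehicle replicate 3, 5, 2 and 4 without PARP3-/- vehicle replicates 1, 2 and 3, 4 and 5 without WT pyridostatin replicates 1 and 3, and 2 without PARP3-/- pyridostatin replicate 2 or 3. The cause of these changes was not tested, other than that fewer libraries or a stricter threshold enter by construction.

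With the replicate block the counts for the wider list were 31 and 34 between genotypes and 3 and 9 for pyridostatin in WT and PARP3-/-, and 0 members were called; among named genes it ended the call of MUC13 in WT (limma adjusted p = 0.061). Depth limits DEFB1 and SPINK6 in the libraries labelled PARP3-/-, whose values moved most with the pseudocount. For single genes, a call was lost in 41 combinations of a result and an alternative and gained in 1, and untested differences moved by more than the spread in 13, of which 12 came with the pseudocount.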
